A study of Mus musculus with 5 samples.

Results

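The common dendritic cell progenitor (CDP) and the classical monocyte stand on different branches of mononuclear phagocyte development, and the comparison asks which genes separated both of them, in the same direction, from the monocyte-dendritic cell progenitor (MDP) and the common monocyte progenitor (cMoP). For each gene the lowest value of one pair of arrays was set against the highest value of the other pair. The difference between those values is called the gap, and a gene was called where the gap reached 1 log2 unit and the higher pair lay at or above a floor of 6.27, the median of all gene values. Of 19938 genes with a value, 9982 could be judged against that floor. Among them 42 (0.421%) were higher in CDP and classical monocytes, and 30 (0.301%) were higher in MDP and cMoP. Counted without a minimum gap, the pairs did not overlap for 1414 genes (14.2%) higher in CDP and classical monocytes and for 2332 genes (23.4%) higher in MDP and cMoP. Such genes are termed apart, and the counts for each list below are to be read against these shares of all genes. The lists were chosen with earlier results of these data known, and this count was chosen after seeing the data. A list count beyond these shares is therefore a description and not independent support.

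All cells came from the bone marrow of untreated wild-type C57Bl/6 mice and were sorted to a stated purity above 95%, with 1 array for each population. Every gate asked for CD115, the receptor for colony-stimulating factor 1, and for absence of lineage markers. MDP were further sorted as CD117+ CD135+ cells, CDP as CD117int CD135+ cells, cMoP as CD117+ CD135- cells and classical monocytes as Ly6C+ TremL4- cells. The remaining array, of nonclassical monocytes (Ly6C- TremL4+), took no part in the choice of genes beyond the floor and the choice of probe set, and is given as a further measurement. The sources used here give neither the number of mice pooled nor their age and sex. MDP and cMoP are the 2 populations gated on CD117+, so the side of the comparison and that gate cannot be told apart. Nothing was replicated, so no difference here has a replicate check and no p-value was computed.

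MDP are marrow progenitors that give rise to both monocytes and dendritic cells, while CDP feed the dendritic branch and cMoP the monocyte branch. Classical monocytes leave the marrow by way of the chemokine receptor CCR2, enter inflamed tissue and can become macrophages or dendritic-like cells. As progenitors of this family mature they generally lose CD117 and the programs of growth and granule protein synthesis, and gain adhesion molecules, pattern recognition receptors and the machinery of phagocytosis.

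Transcripts of the sorting markers matched the sort. Kit, which encodes CD117, had log2 values of 10.11 in MDP, 9.37 in cMoP, 8.16 in CDP and 5.79 in classical monocytes. Flt3, which encodes CD135, was at 10.75 in MDP and 10.74 in CDP and at 6.40 in cMoP and 6.74 in classical monocytes, so it did not separate the pairs. Csf1r, which encodes CD115, ranged from 10.03 to 10.90 over the 4 arrays, and Ly6c1 and Ly6c2 were not analysed here. Array medians ran from 6.02 to 6.16, and 9831 to 10167 genes reached the floor on each array. For 2230 of the 9982 genes (22.3%) a value was exactly tied between the pairs, which counts as overlap. The sources used here do not say where such ties come from. The count of called genes rests on all 4 arrays. It became 575 and 306 without CDP, 70 and 55 without classical monocytes, 111 and 124 without MDP, and 87 and 81 without cMoP, in the order of the directions above, since fewer arrays then had to stand apart.

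**Figure D1:**
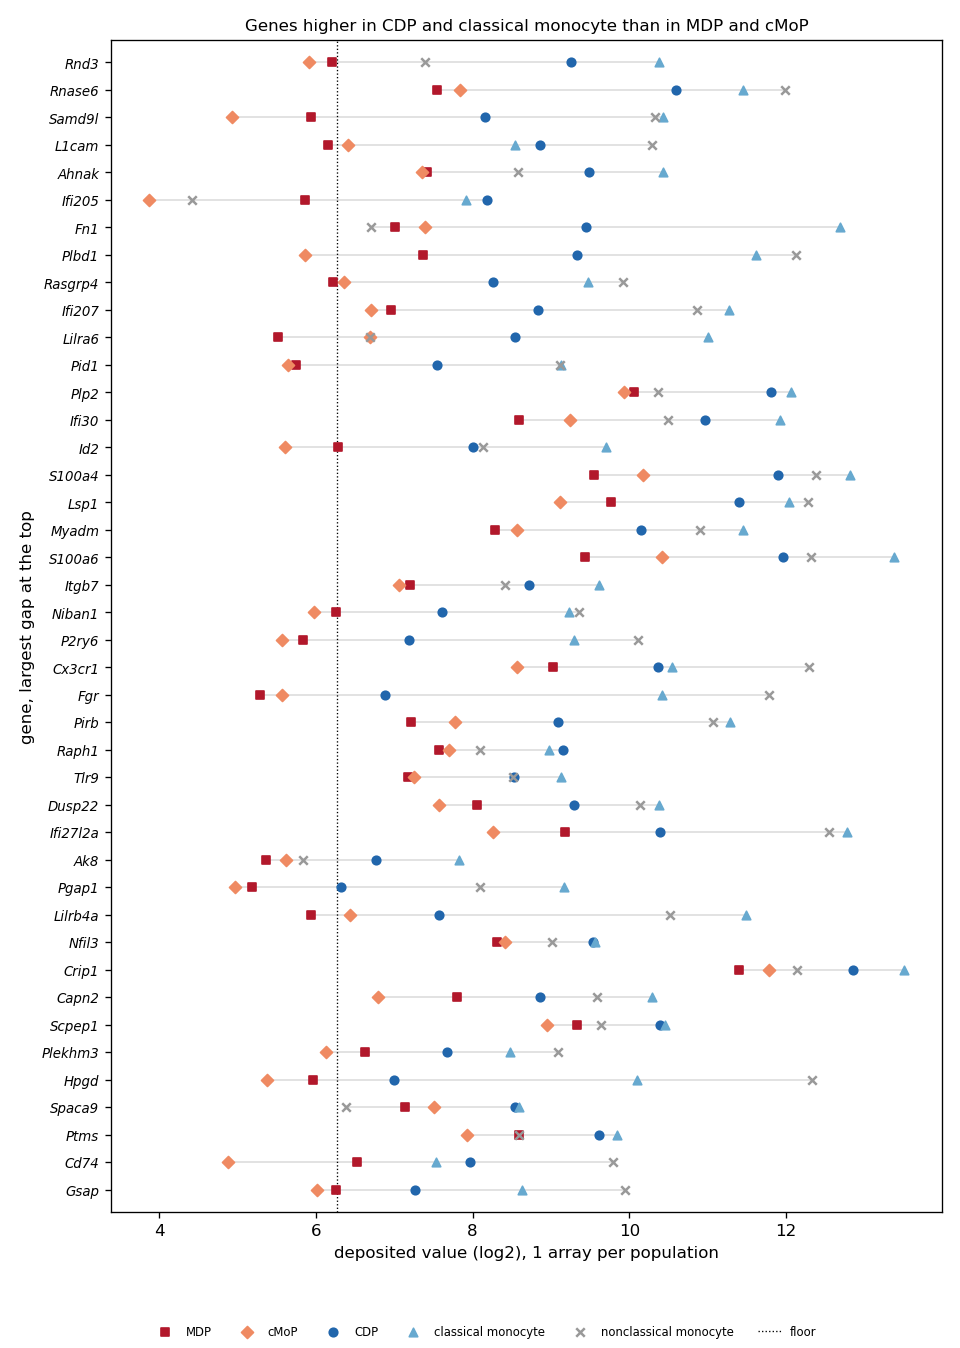
Deposited log2 value (x axis) of each of the 42 genes higher in CDP and classical monocytes (y axis, largest gap at the top), with 1 point per array and the floor of 6.27 as a dotted line. CDP (blue circles) lies to the left of the classical monocyte (light blue triangles) for 38 of the 42 genes. The nonclassical array (grey crosses) lies at or above the lower value of the higher pair for 26.

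The 42 genes shared by CDP and classical monocytes encode, among others, adhesion and cytoskeletal proteins, S100 calcium-binding proteins, interferon-inducible proteins, inhibitory and paired receptors, lysosomal enzymes and the transcriptional regulators Id2 and Nfil3. Their gaps ran from 1.01 to 3.05 with a median of 1.35, and 7 had a gap of 2 or more. In most of them the classical monocyte was further from the progenitors than CDP was. The classical monocyte exceeded CDP for 38 of the 42, by 1 log2 unit or more for 23, and no gene had CDP higher by that much. The median distance from the higher of MDP and cMoP was 1.45 for CDP and 2.79 for classical monocytes. In sorted bulk samples, a larger share of cells with a transcript and more of the transcript per cell cannot be told apart.

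Rnd3, an atypical small GTPase that loosens actin stress fibres, had the largest gap of all. Its log2 values were 6.21 in MDP and 5.91 in cMoP against 9.26 in CDP and 10.38 in classical monocytes. The lower pair was under the floor, so the gap of 3.05 is given as at least 7.95-fold. The nonclassical monocyte, at 7.39, lay between the pairs. Lsp1, an actin-binding protein of leukocytes, was at 9.76 and 9.12 in MDP and cMoP, and at 11.39 and 12.04 in CDP and classical monocytes. Lsp1 stayed high in nonclassical monocytes, at 12.27.

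The Rnd3 promoter is shown because this gene leads the set. The window is the 250 bases upstream of its start site from RefSeq (GRCm38.p6, chr2:51149112-51149361, minus strand), and the capitals mark the CCACCC match described with the other promoters.
Rnd3: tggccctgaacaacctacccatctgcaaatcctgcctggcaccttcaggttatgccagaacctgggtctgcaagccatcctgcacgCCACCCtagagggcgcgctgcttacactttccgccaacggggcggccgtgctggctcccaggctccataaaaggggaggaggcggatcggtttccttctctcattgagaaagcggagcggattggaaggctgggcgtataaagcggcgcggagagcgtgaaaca

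Integrin and adhesion genes gave 3 called members. L1cam, an immunoglobulin-family adhesion molecule, had log2 values of 6.15 in MDP, 6.41 in cMoP, 8.86 in CDP and 8.53 in classical monocytes, a gap of 2.12 or 4.35-fold. It was higher still in nonclassical monocytes, at 10.29. Fn1, which encodes the matrix protein fibronectin and marks classical monocytes, was at 7.01 in MDP and 7.39 in cMoP, at 9.45 in CDP and at 12.69 in classical monocytes. Its nonclassical value of 6.70 was the lowest of the 5 arrays. Itgb7, the beta subunit of gut-homing integrins, had values of 7.20 and 7.06 in MDP and cMoP against 8.72 in CDP and 9.61 in classical monocytes. Of the 24 judged integrin and adhesion genes 15 were apart in this direction and 2 in the other, against 14.2% and 23.4% of all genes. The median difference between the pair means was 0.53 over those 24 members and -0.03 over all genes. Itgb2, the shared beta subunit of the leukocyte integrins, was apart without being called. It had values of 7.25 in MDP, 8.34 in cMoP, 8.99 in CDP and 11.22 in classical monocytes.

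Receptors that guide migrating cells gave 1 called gene in each direction. Cx3cr1, the receptor for the membrane-bound chemokine fractalkine, was at 9.03 in MDP and 8.57 in cMoP, at 10.37 in CDP and 10.54 in classical monocytes, and at 12.29 in nonclassical monocytes. CDP and classical monocytes were thus close to each other for this gene and 2.53-fold or more above the progenitors of the other pair. Ccr2 had a gap of 0.75, with values of 10.25 and 10.37 in MDP and cMoP, 11.12 in CDP and 11.92 in classical monocytes. Gpr183, a receptor for oxysterols that positions dendritic cells, had a gap of 0.55 and was higher in CDP (9.28) than in classical monocytes (8.65). In all, 7 of 10 judged chemokine and sphingosine phosphate receptors were apart in this direction, against 14.2% of all genes. For 4 of the 7, Cxcr4, Cxcr3, S1pr5 and S1pr4, the gap was only 0.15 to 0.21. Over the 18 measured members, 9 were apart in this direction. The called gene on the other side was Cxcr2, a chemokine receptor of neutrophils, at 7.55 in MDP and 6.88 in cMoP against 5.37 and 5.51 in CDP and classical monocytes, both under the floor.

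S100a4 and S100a6, small calcium-binding proteins of motile cells, and Ahnak, a very large scaffold protein that binds the S100a10 and annexin A2 complex, were called together. S100a4 had values of 9.55 in MDP, 10.18 in cMoP, 11.89 in CDP and 12.82 in classical monocytes. S100a6 had values of 9.43, 10.41, 11.95 and 13.37 in the same order, and both stayed high in nonclassical monocytes, at 12.38 and 12.32. Ahnak was at 7.42 and 7.35 in MDP and cMoP, at 9.48 in CDP and at 10.43 in classical monocytes. Within the S100, annexin and galectin list 7 of 21 judged members were apart in this direction, with a median difference of 0.65, so most of the family did not share the pattern. Lgals3, which encodes galectin-3, missed the threshold with a gap of 0.997.

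Fn1, S100a4 and S100a6 were also the called members of the list of classical monocyte markers, where 8 of 17 judged members were apart in this direction and Plac8 alone in the other. Summed on the linear scale over the 20 measured markers, the deposited values came to 19282 in MDP, 28711 in CDP, 30055 in cMoP and 88455 in classical monocytes. The sum in CDP was therefore no higher than in cMoP. Mgst1, a membrane glutathione transferase, was at 7.62 in CDP and 10.32 in cMoP, and Clec4e, a receptor for mycobacterial glycolipid, was at 4.43 in CDP and 6.97 in cMoP. The 42 genes thus held 3 of the classical monocyte markers, while other markers were higher in cMoP than in CDP.

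Of 17 judged interferon-inducible genes 9 were apart in this direction and 0 in the other, against 14.2% and 23.4% of all genes. Their median difference was 0.73. Over all 24 measured members 11 were apart in this direction and 0 in the other. The shares of all genes cover judged genes only. For Samd9l, Ifi205, Mx1, Oas2 and Oas3 both MDP and cMoP lay under the floor, and for Irf7 cMoP did. The higher pair alone let these members be judged. Rtp4, Oasl2 and Ddx58 overlapped and were not judged, because CDP and cMoP lay under the floor. The count of judged members thus leans toward this direction by the way members were admitted. Samd9l, a translation-blocking antiviral protein, had values of 5.93 in MDP and 4.92 in cMoP against 8.16 in CDP and 10.42 in classical monocytes, at least 3.70-fold. Ifi205, a member of the HIN-200 family that binds nucleic acid, was at 5.86 and 3.87 in MDP and cMoP, and at 8.18 in CDP and 7.92 in classical monocytes. Its close relative Ifi207 was at 6.95 and 6.71, and at 8.83 and 11.27. The relatives parted on the nonclassical array, where Ifi205 was at 4.42 and Ifi207 at 10.87. Probes for such related genes may read each other's transcripts, so the separation of Ifi205 from Ifi207 is uncertain. CDP was not higher for the whole program. Ifih1, a sensor of double-stranded RNA, was at 7.49 in MDP and 7.14 in CDP, and Oas1a, an RNA-activated synthetase, was at 7.82 and 7.46, while classical monocytes were at 8.51 and 9.32. Over the 24 measured members the summed linear level was 10348 in MDP, 10183 in CDP, 9200 in cMoP and 22217 in classical monocytes.

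Immunoglobulin-like receptors gave 3 called genes. Lilra6, an activating member of the paired leukocyte receptors, had values of 5.51 in MDP, 6.70 in cMoP, 8.54 in CDP and 11.002 in classical monocytes. Pirb, the inhibitory partner that binds class I molecules, had values of 7.21, 7.78, 9.09 and 11.29. Lilrb4a, another inhibitory receptor of myeloid cells, had values of 5.94, 6.44, 7.56 and 11.49. For all 3 genes the classical monocyte was at least 2 log2 units above CDP, and cMoP lay between MDP and CDP. Nonclassical monocytes had 11.07 for Pirb and 10.51 for Lilrb4a, but 6.69 for Lilra6. These genes have near-identical copies in the mouse, so their values are uncertain as to the exact family member. Of 17 judged paired and inhibitory receptors 7 were apart in this direction and 1 in the other.

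The promoters of Lilra6 and Pirb show how alike these copies are. Their RefSeq promoters were identical at 95.9% of 270 aligned bases, and each held the PU.1-type motif GAGGAAGT at the place marked in capitals. PU.1 is the ETS factor required for myeloid development, and a match is a run of letters, not a measured binding site. Both windows lie upstream of the start sites on the minus strand of chromosome 7 in GRCm38.p6, at chr7:3915618-3915677 for Lilra6 and chr7:3720469-3720528 for Pirb.
Lilra6: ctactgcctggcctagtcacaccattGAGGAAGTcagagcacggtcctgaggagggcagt
Pirb: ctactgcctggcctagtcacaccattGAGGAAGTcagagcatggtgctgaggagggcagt

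Pattern recognition was represented by Tlr9, the endosomal receptor for unmethylated CpG DNA, with values of 7.17 in MDP, 7.25 in cMoP, 8.52 in CDP and 9.12 in classical monocytes. Tlr9 also serves as a plasmacytoid dendritic cell marker, and the nonclassical array had 8.51. Cd180, a TLR4-like receptor, had a gap of 0.93, with 9.90 and 9.83 in MDP and cMoP against 10.83 and 11.42. In the list of pattern recognition genes 5 of 17 judged members were apart in this direction and none in the other. P2ry6, a receptor for extracellular UDP, was at 5.84 and 5.57 in MDP and cMoP, at 7.19 in CDP and at 9.30 in classical monocytes.

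Several genes of the endolysosome and of antigen processing were shared. Plbd1, a phospholipase-like lysosomal protein, had values of 7.36 in MDP, 5.87 in cMoP, 9.33 in CDP and 11.61 in classical monocytes, or 3.90-fold at the gap. Ifi30, the thiol reductase that unfolds antigens in the endosome, had 8.59, 9.24, 10.97 and 11.92. Rnase6, a secreted antimicrobial ribonuclease, had 7.54, 7.83, 10.60 and 11.45, the second largest gap of the set at 2.76. For Ifi30 and Rnase6 CDP was nearer to the classical monocyte than to either progenitor of the other pair, while for Plbd1 it lay 1.97 above MDP and 2.28 below the classical monocyte. Of the 29 lysosome genes, all judged, 11 were apart in this direction and 2 in the other, with a median difference of 0.53. Cd63, a tetraspanin of lysosomes and granules, and Gaa, the acid alpha-glucosidase, were the 2 exceptions.

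Cd74, the invariant chain that escorts class II molecules, was the only called member of the class II list and lay just past the threshold with a gap of 1.01. Its values were 6.53 in MDP, 4.88 in cMoP, 7.97 in CDP and 7.53 in classical monocytes, with 9.79 in nonclassical monocytes. After quantile normalization, which forces the arrays to a common distribution, its gap was 0.95 and it was no longer called. The class II chains themselves did not follow it into the classical monocyte. H2-Aa was at 8.05 in CDP but at 6.30 in classical monocytes, 6.47 in MDP and 5.92 in cMoP, and H2-Ab1 was at 8.04 in CDP and 6.56 in classical monocytes. Ctss and Lgmn, lysosomal proteases that trim the invariant chain, were apart with gaps of 0.55 and 0.79. In all 4 of 9 judged members were apart in this direction and none in the other.

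Id2, an inhibitor of E proteins that is needed for several dendritic cell lineages, had values of 6.29 in MDP and 5.61 in cMoP, 8.01 in CDP and 9.70 in classical monocytes, 3.30-fold at the gap. Nfil3, a basic leucine zipper factor of dendritic and innate lymphoid development, was at 8.31 and 8.41 in MDP and cMoP and at 9.53 and 9.56 in CDP and classical monocytes. The last values of Nfil3 differ by 0.03, while CDP and classical monocytes differ by 1.70 for Id2. Among 29 judged myeloid transcription factors 11 were apart in this direction and 2, Ets2 and Myb, in the other. Bcl6, Klf6, Rara and Irf5 had gaps of 0.84, 0.80, 0.73 and 0.69. Irf8, a factor of both dendritic cell and monocyte development, was at 11.07 in CDP and 10.32 in classical monocytes against 10.54 and 10.45 in MDP and cMoP, so its pairs overlapped.

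Signalling genes of the set included Rasgrp4, an exchange factor for Ras in myeloid cells, at 6.22 in MDP and 6.35 in cMoP against 8.26 in CDP and 9.47 in classical monocytes. Fgr, a Src family kinase of phagocytes, was at 5.29 and 5.57 against 6.89 and 10.41, so CDP stood closer to the floor than the classical monocyte did. Pid1, an adaptor that binds lipoprotein receptors, was at 5.75 and 5.64 against 7.55 and 9.12. Plp2, a membrane protein of the endoplasmic reticulum, was among the most intense of the set, at 10.06 and 9.93 against 11.81 and 12.07. Myadm, a myeloid-associated membrane protein, was at 8.29 and 8.56 against 10.15 and 11.45, and Niban1, a stress-responsive protein, at 6.25 and 5.98 against 7.61 and 9.23. Immediate early genes, which respond to stimulation and to handling of cells, held no called gene. Of 27 judged members 12 were apart in this direction and 2 in the other, against 14.2% and 23.4% of all genes. The 12 were led by Klf6 and by Btg2, a gene that restrains growth, which had a gap of 0.74. NF-kappaB genes were apart in this direction in 7 of 13 cases and in the other in 0, but the gaps were only 0.03 to 0.16. The count of 7 ran from 5 to 10 between the scalings tried. Nonclassical monocytes were the highest of the 5 arrays for 11 of the 13.

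The other called genes on this side had gaps between 1.01 and 1.28 and are named to complete the account. They were Raph1, Dusp22, Ifi27l2a, Ak8, Pgap1, Crip1, Capn2, Scpep1, Plekhm3, Hpgd, Spaca9, Ptms and Gsap. Hpgd, which breaks down prostaglandins, was at 5.96 in MDP, 5.37 in cMoP, 6.99 in CDP and 10.09 in classical monocytes, and highest in nonclassical monocytes at 12.32. Ifi27l2a, an interferon-induced protein, was at 9.17 and 8.26 in MDP and cMoP against 10.38 in CDP and 12.78 in classical monocytes. Crip1, a LIM domain protein, was the most intense of the 42 in CDP, at 12.86, with 13.51 in classical monocytes, 11.40 in MDP and 11.78 in cMoP. Capn2, a calcium-activated protease, was at 7.79 and 6.79 against 8.86 and 10.29, with CDP nearer to MDP than to the classical monocyte. Raph1, with L1cam, Ifi205 and Cd74, made up the 4 genes for which CDP exceeded the classical monocyte. Just inside the threshold lay Gsap, Cd74 and Ptms, with gaps of 1.01, 1.01 and 1.02, and just outside it lay Lgals3, Lifr and Cyp27a1, with 0.997, 0.992 and 0.963. Gsap, Hpgd, Pgap1, Plekhm3, Ptms and Spaca9 were no longer called when the array medians were set equal.

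**Figure D2:**
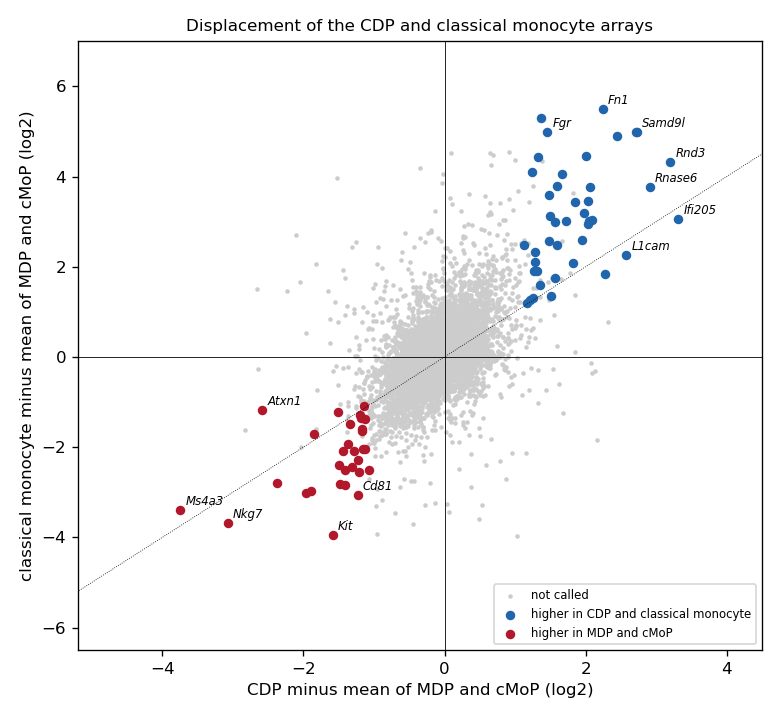
For each of the 9982 judged genes, the CDP value minus the mean of MDP and cMoP (x axis, log2) against the classical monocyte value minus the same mean (y axis, log2), with the 42 genes higher in CDP and classical monocytes in blue, the 30 genes higher in MDP and cMoP in red and the line of equal displacement dotted. Both axes subtract the same mean, so a tilt of the cloud is built in. Of the blue points 38 lie above the line, and of the red points 25 lie below it.

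The nonclassical monocyte array was not used to call these genes. It lay at or above the lower of CDP and classical monocytes for 26 of the 42 genes (61.9%), between the pairs for 11, and at or below the higher of MDP and cMoP for 5, namely Ifi205, Fn1, Lilra6, Spaca9 and Ptms. It was the highest of the 5 arrays for 13, among them Rnase6, L1cam, Plbd1, Rasgrp4, Lsp1, Cx3cr1 and Fgr. For more than 3 in 5 of the 42 genes the nonclassical array thus reached the lower value of the pair, and the set does not mark CDP and classical monocytes alone. That lower value was the CDP value for 38 genes. Id2, for example, was at 8.14 in nonclassical monocytes, 8.01 in CDP and 9.70 in classical monocytes. The matching share over all judged genes was not computed.

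**Figure D3:**
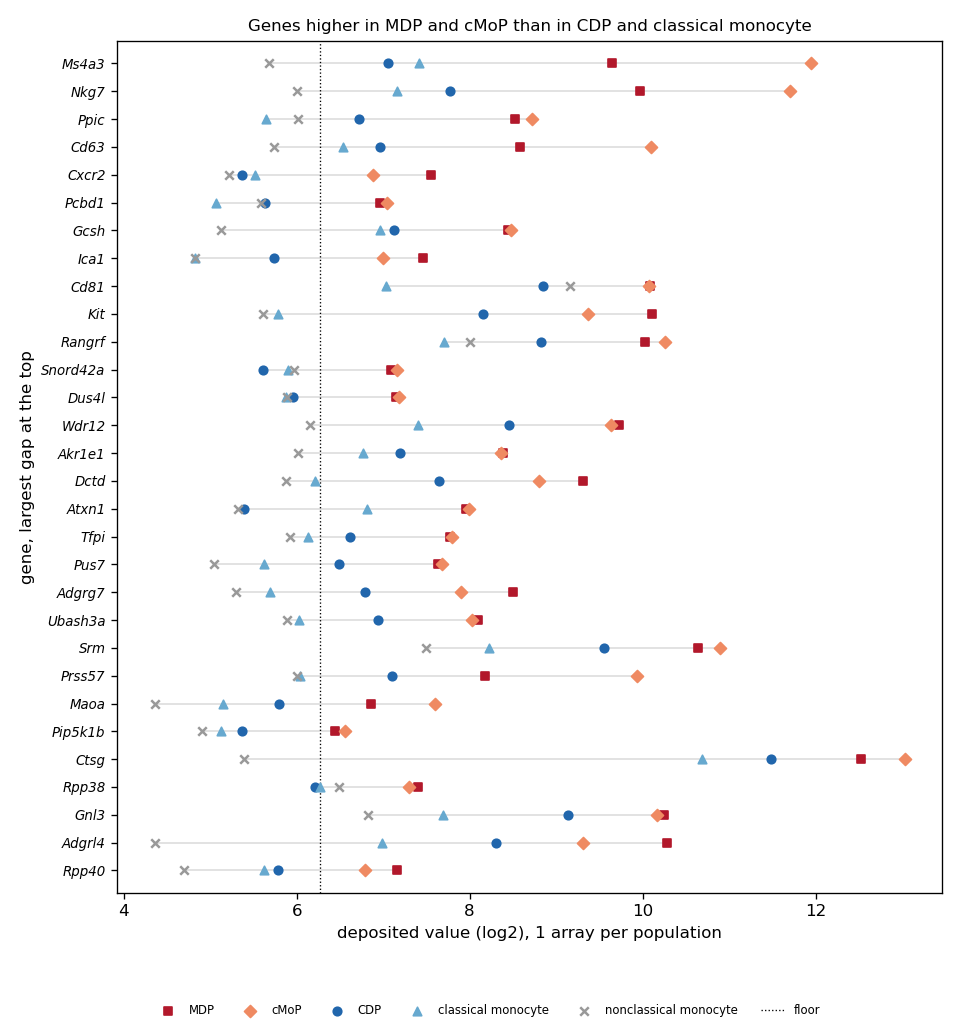
Deposited log2 value (x axis) of each of the 30 genes higher in MDP and cMoP (y axis, largest gap at the top), with 1 point per array and the floor of 6.27 as a dotted line. The nonclassical array (grey crosses) is the lowest of the 5 for 22 genes, and the classical monocyte (light blue triangles) lies below CDP (blue circles) for 25.

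The 30 genes that MDP and cMoP shared encode primary granule proteins, factors of ribosome assembly and RNA modification, enzymes of metabolism and a few surface proteins. Their gaps ran from 1.004 to 2.24 with a median of 1.16. The classical monocyte was below CDP for 25 of them, by 1 log2 unit or more for 11. The median distance below the lower of MDP and cMoP was 1.17 for CDP and 2.02 for classical monocytes. Nonclassical monocytes were at or below the higher of CDP and classical monocytes for 27 of the 30 (90.0%), and Cd81, Snord42a and Rpp38 were the genes between the pairs. For this share too the value over all judged genes was not computed.

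Primary granules, the first granules made by neutrophil and monocyte precursors, gave 5 of the 30 genes. Ms4a3, a tetraspan-like membrane protein of early myeloid cells, had values of 9.65 in MDP and 11.94 in cMoP against 7.05 in CDP and 7.41 in classical monocytes, 4.72-fold at the gap. Nkg7, a granule membrane protein also known from cytotoxic lymphocytes, had 9.97 and 11.70 against 7.77 and 7.16. Cd63 had 8.58 and 10.10 against 6.96 and 6.54. In each of these the cMoP value was the highest and exceeded MDP by more than 1 log2 unit. Prss57, a granule serine protease, had 8.18 and 9.94 against 7.10 and 6.04, and Ctsg, which encodes cathepsin G, had 12.52 and 13.03 against 11.49 and 10.69. Of 16 judged members of the list 14 were apart in this direction and 0 in the other, with a median difference of -1.59, while all genes had 23.4% apart in this direction. Mpo, the myeloperoxidase gene, remained intense in CDP at 12.86, against 13.41 in MDP, 13.58 in cMoP and 11.16 in classical monocytes. Nkg7 is also a member of the T and NK cell list, where only Prf1 and Ccl5 besides it could be judged and neither was apart. Of 5 judged markers of basophils, mast cells and eosinophils 3, Mcpt8, Hdc and Gata2, were apart toward MDP and cMoP, against 23.4% of all genes. Hdc is also in the primary granule list, and the gap of Gata2 was only 0.02. Mcpt8, a basophil protease, was at 8.95 in MDP and 8.70 in cMoP against 7.99 in CDP and 6.71 in classical monocytes, and Hdc, which makes histamine, at 6.57 and 9.09 against 5.80 and 5.84. The other 10 of the 15 measured members, Fcer1a, Ms4a2 and Cpa3 among them, were not judged, and the summed linear level of the list was 1158 in MDP, 1584 in cMoP, 892 in CDP and 710 in classical monocytes. The part of such cells in the granule genes was not tested.

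Ribosome assembly showed the widest agreement between members. All 34 measured genes of the list passed the floor, and 33 were apart in the direction of MDP and cMoP, with Bop1 the exception through a tied value. The median difference was -0.95. Wdr12, a partner of Bop1 in maturation of the large subunit, had values of 9.73 in MDP, 9.64 in cMoP, 8.46 in CDP and 7.41 in classical monocytes. Gnl3, which encodes the nucleolar GTPase nucleostemin, had 10.25, 10.16, 9.13 and 7.69, and Dkc1, the pseudouridine synthase dyskerin, had 9.78, 9.60, 8.67 and 7.78 with a gap of 0.93 on the same side. Only Wdr12 and Gnl3 were called, and Gnl3 was not called after quantile normalization, with a gap of 0.86. The nonclassical array was the lowest of the 5 for 30 of the 34 genes. Outside the list, Rpp38 and Rpp40, subunits of the RNase P and MRP enzymes, Pus7, a pseudouridine synthase, Dus4l, a tRNA dihydrouridine synthase, and the small nucleolar RNA Snord42a were called as well.

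Other programs of biosynthesis lay on the same side with gaps under 1 log2 unit. Nucleotide synthesis genes were apart in 20 of 23 cases with a median difference of -0.77, and chaperonin and folding genes in 18 of 19 with -0.55. The 18 chaperonin and folding genes became 13 after quantile normalization. Genes of the mitochondrial ribosome and of protein import into mitochondria were apart in 24 of 27 cases with -0.52, and respiratory chain genes in 14 of 23 with -0.26. The first 3 of these lists had 0 members apart in the direction of CDP and classical monocytes, the respiratory chain 1, and none of the 4 lists held a called gene. Examples, all with gaps under 1, were Mthfd1, an enzyme of folate metabolism, with 8.50 in MDP and 8.68 in cMoP against 7.55 in CDP and 7.37 in classical monocytes, and Hspa9, the mitochondrial chaperone mortalin, with 10.66 and 10.83 against 9.97 and 9.32. Srm, which encodes spermidine synthase, was called, with 10.64 and 10.90 against 9.55 and 8.22. Phgdh, the first enzyme of serine synthesis, had a gap of 0.98 on this side.

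**Figure D4:**
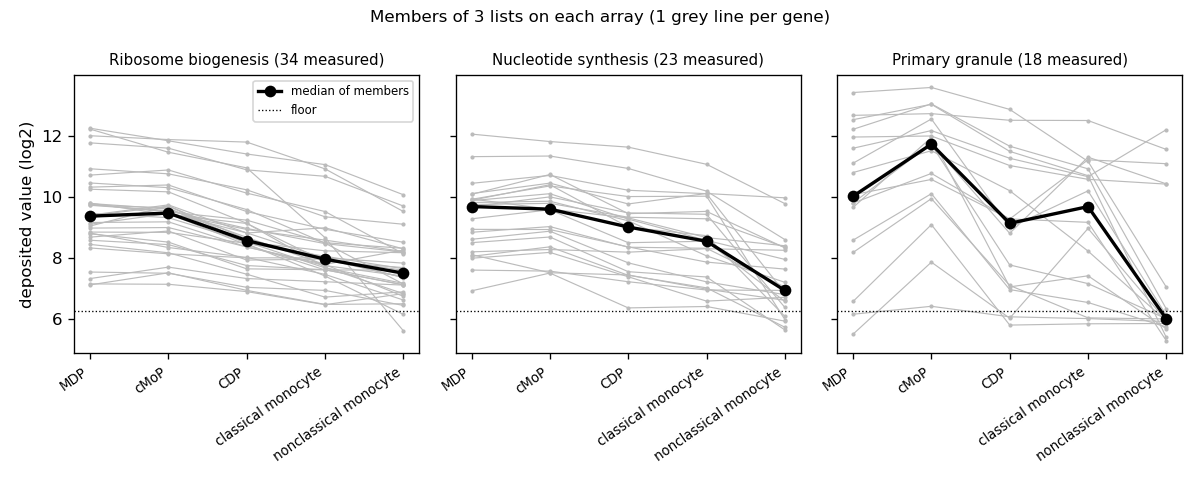
Deposited log2 values (y axis) of the measured members of the ribosome biogenesis, nucleotide synthesis and primary granule lists on each array (x axis), with 1 grey line per gene, the median in black and the floor dotted. The ribosome biogenesis median was 9.37 in MDP, 9.47 in cMoP, 8.57 in CDP, 7.96 in classical and 7.50 in nonclassical monocytes, and the primary granule median was highest in cMoP at 11.72.

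Myc, the transcription factor known for driving ribosome production, had values of 12.21 in MDP, 11.46 in cMoP, 10.95 in CDP and 8.66 in classical monocytes, a gap of 0.51 in the direction of MDP and cMoP. Max, its partner, was at 11.22 in MDP and 11.10 on each of the other 3 arrays. In the MYC and MAX network 2 of 10 judged members were apart in this direction and 1, Mxd3, in the other, which is near the shares of all genes.

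Cell cycle genes were split between the directions. DNA replication genes were apart in the direction of MDP and cMoP in 16 of 28 cases and in the other in 0, with a median difference of -0.33, and Orc1, a subunit of the origin recognition complex, had the largest gap at 0.51. Mitosis genes leaned the other way, with 10 of 24 higher in CDP and classical monocytes, 2 in the other direction and a median difference of 0.18. Cenpa, the histone variant of centromeres, was at 10.13 in MDP and 10.16 in cMoP against 10.52 in CDP and 10.50 in classical monocytes. These mitotic gaps were small, and the 10 genes became 6 after quantile normalization. The 16 replication genes became 11 under the same scaling, with 1 in the other direction. The median mitotic level was 9.91 in MDP, 9.76 in cMoP, 10.04 in CDP and 9.91 in classical monocytes, so classical monocytes of the marrow carried these transcripts at levels near those of the progenitors. Nonclassical monocytes, at a median of 5.75, were the lowest of the 5 arrays for all 24 genes. The CDK inhibitors Cdkn2c and Cdkn2d were apart with gaps of 0.80 and 0.78 toward CDP and classical monocytes, and Cdk4 was apart by 0.62 toward MDP and cMoP.

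Among stem and early progenitor genes 7 of 17 judged members were apart in the direction of MDP and cMoP, and 0 in the other. Kit alone was called, which the CD117 gates ask for. Cd34, a sialomucin of progenitors, was at 11.51 in MDP and 10.82 in cMoP against 10.20 in CDP and 7.24 in classical monocytes, and Myb was at 11.45 and 11.11 against 10.80 and 8.54. CDP thus kept much of the progenitor level for these genes. Adgrl4, an adhesion receptor best known from endothelium, was called with 10.28 in MDP, 9.31 in cMoP, 8.31 in CDP and 6.98 in classical monocytes, at a gap of 1.004 that became 0.89 after quantile normalization. Cd81, a tetraspanin, had 10.09 and 10.07 in MDP and cMoP against 8.85 and 7.03.

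Several further genes higher in MDP and cMoP stood in no list. Ppic, a cyclophilin of the secretory pathway, had values of 8.52 in MDP, 8.72 in cMoP, 6.72 in CDP and 5.65 in classical monocytes, a gap of 1.80. Gcsh, a subunit of the glycine cleavage system, had 8.44 and 8.47 against 7.12 and 6.97, and Dctd, which encodes dCMP deaminase, had 9.31 and 8.80 against 7.65 and 6.21. Atxn1, a transcriptional corepressor, was the gene for which CDP was lowest relative to the classical monocyte, at 5.39 against 6.81, with 7.96 and 7.99 in MDP and cMoP. Its other probe set had a gap of 0.44, and with the mean of both the gene was not called. Rangrf and Pus7 also were not called with the mean over their probe sets. Pcbd1, Ica1, Akr1e1, Tfpi, Adgrg7, Ubash3a, Maoa and Pip5k1b were the remaining called genes, with gaps from 1.07 to 1.32. The genes just inside the threshold were Rpp40, Adgrl4 and Gnl3, with 1.004, 1.004 and 1.03, and those just outside it were Psmg1, Rcn1 and Fam136a, with 0.9995, 0.998 and 0.991.

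A further group of lists held no called gene on either side, apart from Cx3cr1 in the list of nonclassical monocyte markers. Toward CDP and classical monocytes, 4 of 10 judged nonclassical monocyte markers were apart, 3 of 7 Fc and complement receptor genes, 3 of 11 BCL2 family genes, 3 of 14 cholesterol synthesis genes and 1 of 14 proton pump genes. Over all genes 14.2% were apart in this direction. The cholesterol synthesis share of 21.4% was near that, and the proton pump share of 7.14% was below it. In the other direction 1 nonclassical marker and 1 Fc and complement receptor gene were apart. With array medians set equal, 2 BCL2 family genes were apart there as well. Glycolysis genes were apart toward MDP and cMoP in 6 of 15 cases, and amino acid transport genes and targets of the stress factor ATF4 in 7 of 18, with 0 in the other direction. The share of all genes apart toward MDP and cMoP was 23.4%.

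**Figure D5:**
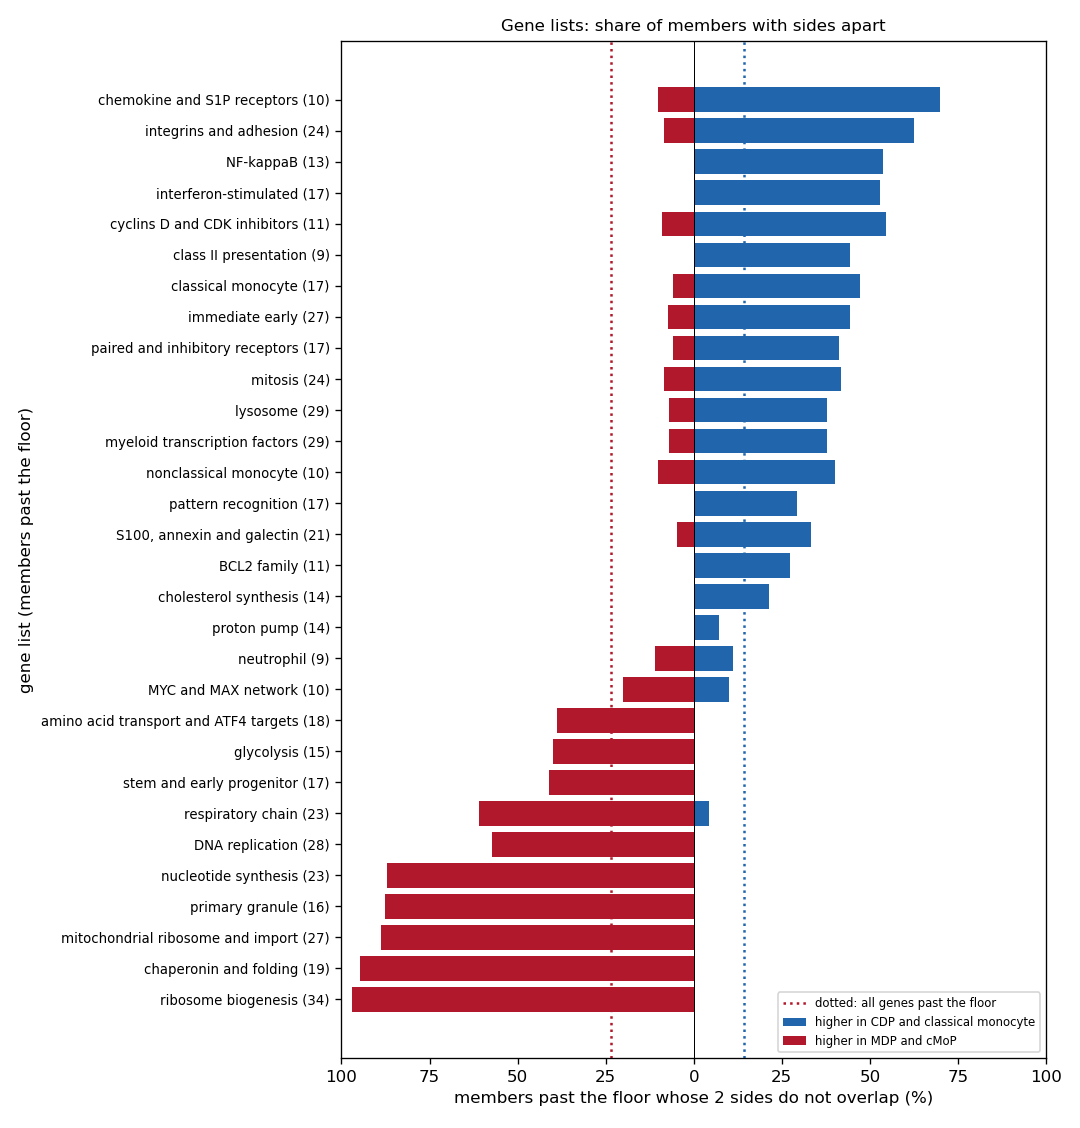
Share of judged members of gene lists with 9 or more of them (y axis, number judged in parentheses) whose pairs did not overlap (x axis, percent), to the right where CDP and classical monocytes were higher and to the left where MDP and cMoP were. Dotted lines mark the shares over all judged genes, 14.2% and 23.4%. Lists of ribosome biogenesis, folding, mitochondrial import, primary granules and nucleotide synthesis extend 87.0% or more to the left.

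Promoters, taken as the RefSeq window from 250 bases before to 50 bases after each start site (GRCm38.p6), were found for 34 of the 42 genes and for 24 of the 30. They were searched on both strands for 8 motifs, each on its own, so that matches of different motifs may overlap. The KLF-type motif CCACCC was present in 21 of the 34 promoters (61.8%) and in 9 of the 24 (37.5%), while 40.5% of judged genes and 34.0% of all 27025 promoters held it. Of 27 ribosome biogenesis promoters, 14 (51.9%) held it. The PU.1-type motif GAGGAAGT was present in 5 of the 34 (14.7%) and in 0 of the 24, against 3.84% of judged genes and 3.69% of all promoters. It was also present in 3 of 27 promoters (11.1%) of the ribosome biogenesis list, which lay toward MDP and cMoP. The interferon response motif, of GAAA repeats spaced by any pair of bases, was present in 3 of the 34 (8.82%) and 1 of the 24 (4.17%), against 3.65% and 3.99%. The E box CACGTG, which MYC and MAX can bind, was present in 3 of the 34 (8.82%), in 4 of the 24 (16.7%) and in 6 of 27 ribosome biogenesis promoters (22.2%), against 12.2% of judged genes and 8.09% of all promoters. The C/EBP-type motif TTNCNNAA was present in 47.1% and 54.2%, against 34.7% and 44.1%. AP-1 (TGANTCA), CRE (TGACGTCA) and NF-kappaB motifs were found in 2, 0 and 1 of the 34 and in 0, 0 and 1 of the 24. With so few promoters these shares are descriptions of the letters present, and Lilra6 and Pirb count as 2 although their promoters are near-copies.

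The remaining GAGGAAGT matches lay near the start sites of Itgb7 (chr15:102231906-102231961, minus strand), S100a4 (chr3:90603761-90603799, plus strand) and Tlr9 (chr9:106222582-106222627, plus strand), in each case on the opposite strand, so that the capitals read ACTTCCTC. They are shown because these genes carry adhesion, calcium-binding and DNA-sensing functions of the shared set.
Itgb7: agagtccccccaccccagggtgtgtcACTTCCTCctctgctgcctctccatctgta
S100a4: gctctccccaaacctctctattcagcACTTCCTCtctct
Tlr9: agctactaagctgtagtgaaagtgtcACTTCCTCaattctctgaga

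The interferon response matches belonged to Ifi205 (chr1:174031854-174031915, minus strand), Ifi207 (chr1:173741815-173741876, minus strand) and Rnase6 (chr14:51128991-51129052, plus strand), whose capitals are in the opposite orientation. The promoters of Ifi205 and Ifi207 were identical at 66.7% of 207 aligned bases. On the other side, Rpp38 is shown for its E box (chr2:3332599-3332644, minus strand).
Ifi205: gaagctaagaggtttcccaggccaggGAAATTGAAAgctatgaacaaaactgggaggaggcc
Ifi207: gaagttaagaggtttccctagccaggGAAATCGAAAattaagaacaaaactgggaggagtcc
Rnase6: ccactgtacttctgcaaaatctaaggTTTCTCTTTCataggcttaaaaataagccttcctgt
Rpp38: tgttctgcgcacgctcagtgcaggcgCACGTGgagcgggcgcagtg

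Markers of other cell types were read on the same arrays. The summed linear level of the 19 measured neutrophil genes was 1605 in MDP, 1455 in CDP, 5164 in cMoP and 24477 in classical monocytes, and 13 of the 19 reached the floor on some array. The members highest in classical monocytes were Chil3 at 12.80, S100a8 at 12.64 and S100a9 at 12.07. Chil3 is also in the list of classical monocyte markers, so the sum does not count transcripts of neutrophils alone. Mmp8, a granule collagenase, was at 11.28 there and between 6.75 and 7.17 on the other 3 arrays, and Cd177, a neutrophil surface protein, was at 9.88 and between 6.42 and 6.89. Lcn2, a granule protein that binds iron carriers, was at 10.45 in classical monocytes and 8.97 in cMoP, and Padi4, a histone-modifying enzyme of neutrophils, was at 7.46 in classical monocytes and under the floor on the other 3. Several members of the neutrophil list were thus higher in classical monocytes, whereas Ltf, Ly6g and Retnlg, between 4.63 and 4.78, were under the floor on all 4 arrays. CDP had the lowest neutrophil sum of the 4 arrays. Dendritic cell markers did not share a single pattern. Clec9a, a dead-cell receptor of type 1 dendritic cells, was at 9.86 in CDP and 5.74 in classical monocytes, and Siglech, of plasmacytoid cells, was at 7.68 and 5.60. Kmo, Cd300c and Tcf4 were also higher in CDP, at 9.09, 8.98 and 9.54, but stayed above the floor in classical monocytes, at 6.89, 6.53 and 8.16. Zbtb46, a factor of conventional dendritic cells, and Xcr1, a chemokine receptor of type 1 cells, were under the floor on both arrays. Toward CDP and classical monocytes 2 of 8 judged genes of the shared conventional list were apart, 2 of 6 of the type 1 list and 3 of 7 of the plasmacytoid list, with 0 of each in the other direction. Over all genes 14.2% were apart toward CDP and classical monocytes. The members of the shared conventional list that were apart were Id2 and Nav1, and the gap of Nav1 was only 0.015. The type 2 dendritic cell list, whose members Itgam, Klf4 and Sirpa monocytes also express, was apart toward CDP and classical monocytes in 5 of 7 judged cases. Summed levels of the macrophage list were 616 in MDP, 750 in CDP, 793 in cMoP and 2336 in classical monocytes, and those of the B cell list ran from 1423 to 1868. Of 10 measured erythroid genes 1 was judged and it was not apart. Of 8 megakaryocyte and platelet genes 4 were judged and 1, Treml1, was apart, toward CDP and classical monocytes with a gap of only 0.05. The part of such cells in the called genes was not tested.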

How the data were processed

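RNA of 5 sorted populations was measured on expression arrays, 1 array each, after extraction with the RNAqueous-Micro kit and labelling with the Nugen Encore Biotin kit, per the labels' protocols. The authors deposited 1 log2 value per probe set and array, already summarized from probes; the scale was read from the range, 1.59 to 14.24. The sources used here do not state normalization, software, log base or the array's genome build, and another base would change every fold.

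Of 35556 probe sets, 21789 carry 1 gene symbol in the platform annotation, 1621 carry several and 12146 are not listed. Of the 21789, 21698 matched a RefSeq gene by Entrez identifier and 0 symbols changed. For 999 genes with several probe sets the one with the highest mean over 5 arrays was used. Side 1 was CDP and classical monocyte, side 2 MDP and cMoP, with a threshold of 1 log2 unit. A fold with its lower value under the floor was computed from the floor and is a lower bound. Genes named are the 25 with the largest gap in each direction, called list members, sort genes, threshold neighbours and list members with large gaps. The members and the 43 lists (830 genes, 767 measured) were chosen with earlier results of these data known, and the results of 1 list are not reported here. Alternatives covered scaling, floor, gap size, probe set choice and leaving out each array. Counting genes without a minimum gap was chosen after seeing the data. Python 3.11.15, pandas 2.3.3 and numpy 2.4.6 were used, and the count was tested on simulated data. Precision is limited by having 1 array per population.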

Additional observations from a re-analysis of the deposited data

How the results depend on the processing

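No paired analysis was possible because each population has 1 array and no test was made. With a floor at the upper quartile, 30 of the 42 genes higher in CDP and classical monocytes and 18 of the 30 higher in MDP and cMoP were still called. That floor left 797 and 1532 genes apart toward CDP and classical monocytes and toward MDP and cMoP. A gap of 0.5 gave 175 and 308 called genes and a gap of 2 gave 7 and 2. Leaving out 1 array gave 70 to 575 and 55 to 306 called genes and 2479 to 3448 and 3561 to 4003 genes apart, since fewer arrays had to stand apart. Setting array medians equal gave 36 and 37 called genes, and quantile normalization 43 and 28. Of the 42 and 30 genes, 36 and 30 were also called with equal medians and 38 and 26 after quantile normalization, which dropped Adgrl4, Cd74, Ctsg, Gnl3, Hpgd, Pgap1, Rpp38 and Scpep1. When the probe sets of each gene were averaged, Atxn1, Pgap1, Pus7 and Rangrf were not called. No gap of a called gene changed sign under the scalings or the probe set choices. Leaving out an array can only widen a gap or leave it as it was, so it says nothing about the stability of a call. Of the 43 lists, 39 had a median difference beyond 0.1, and under both scalings and the mean of probe sets 0 of them changed sign. No list median moved by more than 0.0226 with equal medians or 0.0779 after quantile normalization. Neither scaling could therefore have changed the sign of a median beyond 0.1. Among all 43 lists, the BCL2 family changed sign with equal medians. With 11 of the 42 and 8 of the 30 genes the lower pair lay under the floor, where dim signal limits the size of the gap.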

Other observations

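Probe sets without a single gene name were judged by the same rule. For comparison, 42 (0.421%) of the 9982 judged genes were higher in CDP and classical monocytes and 30 (0.301%) in MDP and cMoP. Of 4757 probe sets that the annotation does not list and that passed the floor, 45 were higher in CDP and classical monocytes and 12 were higher in MDP and cMoP. Of 794 with several symbols, 3 were higher in CDP and classical monocytes and 0 in MDP and cMoP. Their genes are not named here.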
